A study of Mus musculus with 8 samples.

Results

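Matrix glycoproteins and basement membrane proteins form a set of 53 genes, out of 37325 distinct gene names on the array, whose expression was compared between cardiac mesenchymal stromal cells (cMSCs) of young and aged mice. The genes were taken by name, as elastic fibre and microfibril proteins (14 genes), matricellular proteins (16 genes), adhesive and linker glycoproteins (7 genes) and basement membrane proteins (16 genes). The cells came from ventricles of male C57Bl/6 mice aged 5 months (young) or 20 months (aged) and were sorted as CD45- CD31- Sca-1+ PDGFR-α+ cells and lysed without culture. The labels give no treatment or transgene, while the study's methods name both wild-type animals and a reporter line with eGFP at the Cx3cr1 locus and the CD45.1 allele, and which of them gave the pools is not stated in the sources used here. Each group held 4 pools, with 3 mice to a pool by the study's methods, and a separate 1-colour Agilent array was used for every pool. Young pools carry the numbers 2, 3, 4 and 5 and aged pools 1, 2, 3 and 4 in the sample labels. A pool averages its mice, so the spread between animals was not measured, and all 8 arrays lay on 1 slide.

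The extracellular matrix around stromal cells is built from collagens and from glycoproteins that link, organize and signal through them. Elastic fibres consist of an elastin core on a scaffold of fibrillin microfibrils, joined by fibulins and emilins. Matricellular proteins such as periostin, the thrombospondins and the tenascins add little strength to a tissue but bind collagens, growth factors and integrins, and are known for their increase after cardiac injury. Basement membranes are thin sheets in which a network of laminin trimers and a network of type IV collagen are bridged by nidogens and perlecan. In the heart they surround each cardiomyocyte and each capillary, and mesenchymal cells are among the sources of their subunits.

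Signals are log2 values of the processed intensity minus that of the array's 75th percentile, so a value of 0 lies at that percentile. The level of one probe cannot be set against that of another, since probes differ in how strongly they bind. Fold changes are log2 differences, aged minus young, with the standard error (SE) of the linear model fitted to all 20226 genes with limma. Rose and fell are written of genes with a Benjamini-Hochberg adjusted p, over all these genes, below 0.05. All 53 genes had probes, 113 in all, and 49 genes were tested because the scanner software marked a probe as well above background on each of the 4 arrays of the young, the aged or both groups. For 47 of the 49 the probe was well above background on all 8 arrays. In bulk RNA of sorted cells, fewer cells that express a gene and less RNA of that gene per cell cannot be told apart.

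The sort markers were checked first. Pdgfra, which encodes PDGFR-α, averaged 5.35 ± 0.13 in the young pools and 5.15 ± 0.09 in the aged pools (SD, n = 4 each), and Ly6a, which encodes Sca-1, averaged 5.57 ± 0.20 and 6.24 ± 0.25. The probe for Pecam1, which encodes the CD31 that the sort excluded, was dim at -2.34 ± 0.21 and -2.32 ± 0.17. For Ptprc, which encodes the excluded CD45, 1 of 7 probes was well above background on all 8 arrays, at 1.37 ± 0.10 and 1.44 ± 0.15. The 6 others were so on at most 5 arrays, 4 of them on none, so the probes of Ptprc disagree and that value is uncertain as a level of CD45. Of these 4 markers none passed the test, the smallest adjusted p being 0.0516 for Ly6a. Its fold change was 0.67, and all aged pools lay above all young pools.

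Markers of cell types that a cardiac sort could hold were read beside the matrix genes, each list summed on the linear scale in units of the 75th percentile. Bright probes dominate such sums, so a sum does not measure the amount of a cell type. Over all genes 2.37% rose and 0.801% fell, so lists this short can hold no call without differing from all genes. Among 7 fibroblast markers, Thy1 fell by 0.71 and the others did not pass, and the sum was 1246 to 1739 in young and 1221 to 1468 in aged pools. Of the 7 differences 6 were negative, with a median fold change of -0.36. In 4 of the 7 all aged pools lay below all young pools, against 4.05% of all genes. Of 8 cardiomyocyte markers, 7 were tested, Tnni3 fell, Pln fell on a probe well above background on all 4 young but 2 aged arrays, and the sum was 6.67 to 8.79 in young and 3.93 to 6.68 in aged pools. All 7 differences were negative, and in 4 of the 7 all aged pools lay below all young pools. Of 5 neutrophil markers, 4 were tested and S100a9, Ly6g and Camp rose, with sums of 1.26 to 1.88 in young and 2.91 to 9.65 in aged pools. In all 4 the aged pools lay above all young pools, against 6.68% of all genes. The S100a9 probe was well above background on 3 young and all 4 aged arrays. S100a9 thus entered the test through the aged pools alone and Pln through the young pools alone, so the filter favoured these directions. Ngp stayed near background on all 8 arrays. None of the 8 endothelial, 8 mural, 5 tested macrophage, 3 tested Schwann and 2 tested mesothelial markers passed. Their sums were 12.7 to 16.9 in young and 11.4 to 18.2 in aged pools for endothelial markers, 31.9 to 40.9 and 29.8 to 32.6 for mural, 2.54 to 6.21 and 4.33 to 7.68 for macrophage, 0.959 to 1.22 and 0.820 to 1.29 for Schwann, and 0.216 to 0.359 and 0.193 to 0.722 for mesothelial markers. The part of any of these cell types in the matrix genes' values was not tested.

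Of the 49 genes tested, 4 rose and 2 fell in aged cMSCs, where quantile normalization gave 4 and 4 and median scaling 3 and 1. That is 12.2% of them, against 3.17% of all genes tested, and by direction 2.37% of all genes rose and 0.801% fell. Over all genes 479 rose and 162 fell, with 485 and 168 under quantile normalization and 363 and 126 under median scaling. Of the 49, those that rose were Postn and Cthrc1 among the matricellular proteins and Fbln7 and Efemp1 among the fibulins. The genes that fell, Nid1 and Hmcn1, are of the basement membrane class. Hmcn1, however, entered the test through the young pools alone, where its signal is dim but higher than in aged pools. Among probes well above background on all 8 arrays 5 genes rose, Thbs3 being added (adjusted p = 0.0499), and 1 fell, Nid1. The median fold change was -0.03 over the 49 genes and 0.0014 over all genes, and 19 of the 49 differences were positive and 30 negative, against 49.6% negative over all genes. In 27 of the 49 genes the 95% interval of the fold change lay entirely within 0.5 of 0 in either direction, as it did in 62.0% of all genes.

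**Figure D1:**
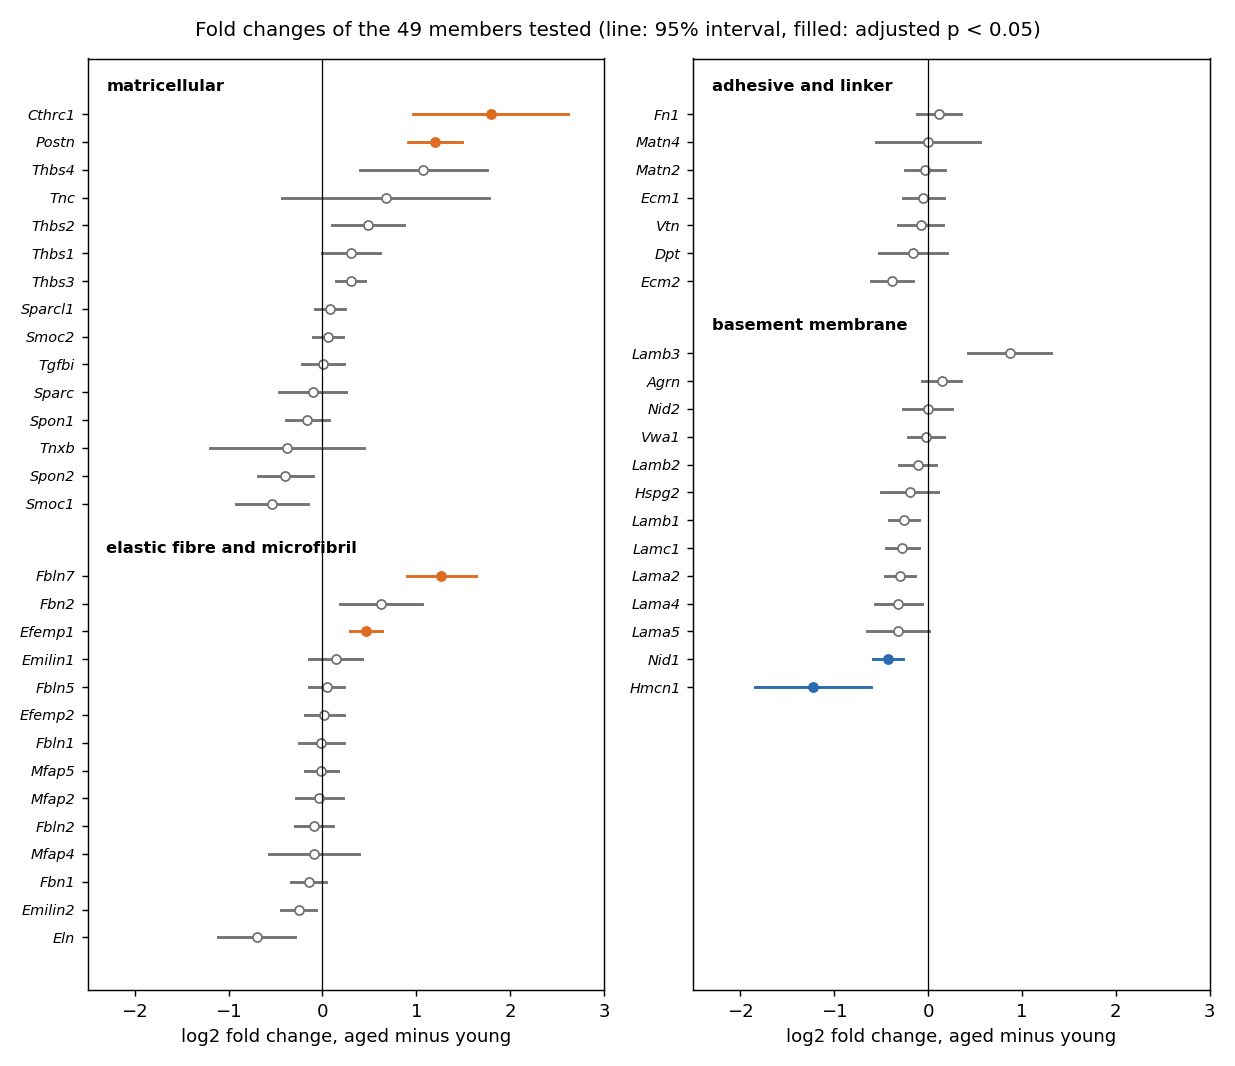
Log2 fold change (aged minus young, horizontal axis) of each of the 49 genes tested, by class, with its 95% interval as a line. Filled symbols mark the 4 genes that rose, from 0.47 for Efemp1 to 1.79 for Cthrc1, and the 2 that fell, Nid1 and Hmcn1, while open grey symbols mark the 43 that did not pass.

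All 4 aged pools lay above all 4 young pools in 7 genes and below them in 10, against 6.68% and 4.05% of all genes. Besides the 4 that rose, the former are Thbs3, Thbs4 and Lamb3. Besides the 2 that fell, the latter are Lama2, Lama4, Lamb1 and Lamc1 of the basement membrane, Eln and Emilin2 of elastic fibres, the linker gene Ecm2 and the matricellular gene Spon2. At the thresholds the study's methods used, an unadjusted p below 0.01 and a log2 fold change over 0.5 in either direction, 5 genes were higher and 2 lower, against 3.22% and 1.26% of all genes. These were Postn, Fbln7, Cthrc1, Lamb3 and Thbs4, and Hmcn1 and Eln.

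Sequence upstream of 3 of the genes that passed is shown to place the transcripts in the genome, since Postn and Fbln7 had the smallest adjusted p among those that rose and Nid1 among those that fell. Each is the 250 bases before an annotated transcription start, read 5′ to 3′ on the strand of the gene, from RefSeq on GRCm38.p6. Capitals mark TATAAA, the CCAAT box (CCAAT) or the GC box (GGGCGG), read on both strands, and the last 2 motifs were added after the windows had been read.
Postn (chr3:54360857-54361106, + strand): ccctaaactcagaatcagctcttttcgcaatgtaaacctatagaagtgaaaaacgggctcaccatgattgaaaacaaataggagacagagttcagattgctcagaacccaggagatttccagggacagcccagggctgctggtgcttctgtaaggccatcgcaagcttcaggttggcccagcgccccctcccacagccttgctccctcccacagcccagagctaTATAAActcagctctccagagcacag
Fbln7 (chr2:128863682-128863931, + strand): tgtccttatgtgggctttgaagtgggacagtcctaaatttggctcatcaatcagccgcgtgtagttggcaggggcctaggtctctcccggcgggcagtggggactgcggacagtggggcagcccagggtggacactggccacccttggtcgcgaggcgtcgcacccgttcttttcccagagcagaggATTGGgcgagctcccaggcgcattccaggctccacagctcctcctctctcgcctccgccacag
Nid1 (chr13:13437352-13437601, + strand): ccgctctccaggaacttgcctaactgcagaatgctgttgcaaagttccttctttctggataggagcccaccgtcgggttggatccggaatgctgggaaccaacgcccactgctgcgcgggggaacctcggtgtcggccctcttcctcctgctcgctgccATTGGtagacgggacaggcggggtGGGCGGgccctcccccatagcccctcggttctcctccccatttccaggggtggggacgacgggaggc
The Postn window holds TATAAA from -26 to -21 relative to the start, as do 12.4% of all 32851 windows in the table. A second annotated Postn start lies further upstream, and its window (chr3:54359017-54359266) holds none of the motifs. Fbln7 holds CCAAT on the reverse strand from -63 to -59 (33.8% of all windows hold it on either strand), and Nid1 holds it on the reverse strand from -91 to -87 and GGGCGG from -67 to -62 (32.7% of all windows). TGACTCA, a binding motif of AP-1, was in none of these windows, and in 4.46% of all windows and 2 of the 43 windows of 32 tested matrix genes with an entry. Of those 43 windows, 6 held TATAAA, 9 CCAAT and 24 GGGCGG, and no motif overlapped another in the 3 sequences shown.

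Postn encodes periostin, a matricellular protein secreted by activated fibroblasts that binds collagen and integrins. Its signal was 4.15, 3.56, 3.80 and 3.67 in young pools 2, 3, 4 and 5 and 4.94, 5.03, 5.05 and 4.96 in aged pools 1, 2, 3 and 4. The aged pools were nearly alike, the young pools varied more, and the groups were well apart. Postn rose by 1.20 (SE 0.13, 95% interval 0.91 to 1.49, adjusted p = 0.00225, limma), which is 2.30-fold. Its 4 probes gave 1.10 to 1.24, and the one used lies at 54194483 to 54194542 of chromosome 3 on the build mm9. The change was 1.34 within the first row of the slide and 1.07 within the second, where each row held 2 young and 2 aged pools.

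Cthrc1 encodes a secreted glycoprotein with a short collagen-like stretch that is made at sites of tissue repair. Its signal was -1.99, -3.34, -3.03 and -3.92 in young pools 2, 3, 4 and 5 and -1.45, -1.25, -1.49 and -0.91 in aged pools 1, 2, 3 and 4. All values were far below the 75th percentile though well above background, and young pool 2 stood closest to the aged pools. Cthrc1 rose by 1.79 (SE 0.36, 95% interval 0.97 to 2.62, adjusted p = 0.0364, limma), or 3.47-fold, on a probe at 38918272 to 38918331 of chromosome 15 (mm9). It was the largest change among the 49 genes and also the widest interval among those that rose. The difference was 2.45 within the first slide row and 1.14 within the second, and 1.10 after normexp background correction. A second probe stayed near background on all 8 arrays. Leaving out any pool other than young pool 2 gave an adjusted p of 0.0636 to 0.107, and array weights gave 0.0858. The block on pool code gave 0.0578, that on pool number 0.207, the methods' t-test after adjustment 0.122, and keeping all dim probes 0.127.

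The thrombospondins are calcium-binding glycoproteins that bridge matrix proteins and cell receptors, Thbs1 and Thbs2 as trimers and Thbs3, Thbs4 and Comp as pentamers. None of the 4 thrombospondin genes among the 53 passed the test, although all had a positive difference. Thbs3 had a fold change of 0.30 (SE 0.07, adjusted p = 0.0507), with young pools between 5.22 and 5.34 and aged pools between 5.54 and 5.61. Thbs4 had 1.08 (SE 0.30, adjusted p = 0.106), with young pools spread from 1.24 to 2.76 and aged pools from 2.89 to 3.35. Thbs3 passed under 4 alternative settings and Thbs4 under 1. In both genes the groups did not overlap, and the young pools of Thbs4 (SD 0.66) were far more spread than those of Thbs3 (SD 0.05). Thbs1 and Thbs2 had 0.30 and 0.48 with overlapping groups. Comp, the other pentameric member of the family and not among the 53 genes, rose by 1.04 (SE 0.15, adjusted p = 0.00868), from 4.89, 5.10, 4.75 and 4.39 in young pools 2, 3, 4 and 5 to 5.86, 5.94, 5.85 and 5.63 in aged pools 1, 2, 3 and 4.

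Sparc and Sparcl1, related collagen-binding and calcium-binding proteins, were chosen for description by the signals of their probes, the 2 brightest of the class. Sparc was at 9.28, 9.52, 8.88 and 9.52 in young pools 2, 3, 4 and 5 and at 9.28, 8.97, 9.19 and 9.35 in aged pools 1, 2, 3 and 4. These values overlapped throughout, with a fold change of -0.10 (95% interval -0.46 to 0.25). Its other probes gave -0.30 and -0.48 and did not pass either. Sparcl1 was at 8.13, 8.16, 8.05 and 8.13 in young and 8.25, 8.10, 8.22 and 8.24 in aged pools in the same order of numbers, a fold change of 0.08 with an interval from -0.08 to 0.24. The other matricellular genes did not pass: Tnc (0.67), Smoc2 (0.06), Tgfbi (0.01), Spon1 (-0.16), Tnxb (-0.38), Spon2 (-0.40) and Smoc1 (-0.54). Tnc and Tnxb, which encode tenascins, were the least settled of these, with intervals from -0.43 to 1.77 and from -1.20 to 0.45, and the Tnc probe was well above background on all 4 aged but only 3 young arrays. Both probes of Tnn, the remaining tenascin, stayed near background on all 8 arrays.

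Of 14 other matricellular genes, such as the CCN family and osteopontin, 12 were tested, of which Comp rose and none fell. Over all genes 2.37% rose and 0.801% fell. The median fold change of the 12 was 0.26 and 10 of them had a positive difference, as had 10187 of all 20226 genes. This list was written with earlier results of these data known and is no independent check.

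**Figure D2:**
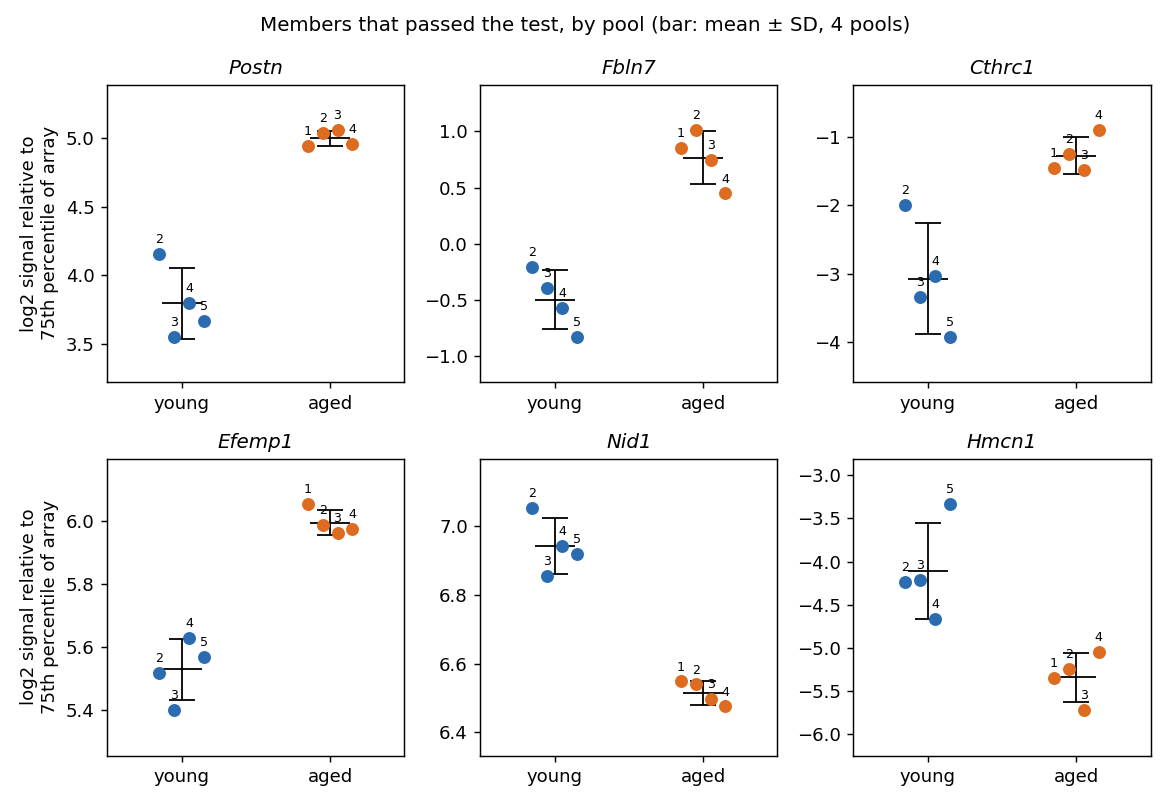
Log2 signal above the array's 75th percentile (vertical axis, a separate scale in each panel) of the 6 genes that passed, in each young (blue) and aged (orange) pool, with the pool number beside its point and the mean ± SD of 4 pools in black. The groups are apart in every panel, and in Hmcn1 and Cthrc1 young pools 4 and 2 lie nearest to the aged pools.

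Fbln7 encodes fibulin 7, a small secreted fibulin that binds cells and heparin. Its signal was -0.21, -0.39, -0.57 and -0.83 in young pools 2, 3, 4 and 5 and 0.86, 1.01, 0.75 and 0.45 in aged pools 1, 2, 3 and 4. Every aged pool was thus above the 75th percentile of its array and every young pool below it. Fbln7 rose by 1.27 (SE 0.16, 95% interval 0.90 to 1.63, adjusted p = 0.00506, limma), or 2.41-fold, with 1.26 and 1.27 within the slide rows. The array holds 1 probe for it, at 128721383 to 128721442 of chromosome 2 (mm9).

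Efemp1 encodes fibulin 3, an elastic fibre-associated protein of connective tissue. It was at 5.52, 5.40, 5.63 and 5.57 in young pools 2, 3, 4 and 5 and at 6.05, 5.99, 5.96 and 5.97 in aged pools 1, 2, 3 and 4, and no pool crossed over. Efemp1 rose by 0.47 (SE 0.08, 95% interval 0.29 to 0.64, adjusted p = 0.0150, limma), or 1.38-fold, and its second probe gave 0.46. The probe used lies at 28826538 to 28826597 of chromosome 11 (mm9), and the slide rows gave 0.53 and 0.40. Without aged pool 1 the adjusted p was 0.0567 and without aged pool 3 it was 0.0511. Scaling each array to its median gave 0.135, no filter on dim probes 0.0914, and blocks on pool code and pool number 0.0894 and 0.293.

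Elastin and the microfibril proteins did not pass the test. Eln, which encodes elastin, was at 2.82, 2.82, 2.74 and 3.27 in young pools 2, 3, 4 and 5 and at 2.14, 2.59, 1.82 and 2.30 in aged pools 1, 2, 3 and 4. All aged pools were below all young pools, but the fold change of -0.70 (SE 0.18, 95% interval -1.11 to -0.29) did not pass (adjusted p = 0.0829, limma), and the second probe gave -0.72. It passed with limma's trend and robust options (0.0443) and with array weights (0.0347). Mfap5, a microfibril-associated glycoprotein, was at 7.46, 7.37, 7.32 and 7.29 in young and 7.41, 7.44, 7.28 and 7.26 in aged pools, in the same order of numbers, with a fold change of -0.01 (95% interval -0.19 to 0.16). Fbln2, a fibulin of vessel and valve matrix, was at 6.71, 6.87, 6.60 and 6.86 in young and 6.69, 6.62, 6.59 and 6.78 in aged pools, with a fold change of -0.09 (95% interval -0.29 to 0.12). In both genes the groups overlapped, and the intervals reach no further than 0.29.

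The fibrillins form the microfibril itself. Fbn1 had a fold change of -0.14 with 2 neighbouring probes nearly alike (-0.14 and -0.13), whereas another, dimmer probe, far from them in the gene, gave 0.51 (SE 0.13, adjusted p = 0.0834 over all kept probes), so its direction depends on the probe. Fbn2, the fibrillin of developing tissue, had 0.62 (SE 0.19, adjusted p = 0.150), with 1.10 in the first slide row and 0.15 in the second. The other genes of the class had fold changes between -0.25 (Emilin2) and 0.14 (Emilin1) and did not pass. Of these, Fbln5, Efemp2, Fbln1, Mfap2 and Mfap4 were between -0.09 and 0.05.

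Of 14 other elastic fibre genes, among them the latent TGF-β binding proteins and the lysyl oxidases that crosslink elastin and collagen, 13 were tested and none passed. Ltbp2 had the largest change, 0.86 (SE 0.19, adjusted p = 0.0501), with young pools between 4.28 and 5.05 and aged pools between 5.34 and 5.93, so the groups were apart while the test fell just short. At an unadjusted p below 0.01 with a fold change over 0.5, 2 of the 13 were higher and none lower, against 3.22% and 1.26% of all genes.

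Among the adhesive and linker glycoproteins none of 7 passed. Ecm2, a leucine-rich matrix protein, was at 3.20, 3.17, 3.15 and 3.07 in young pools 2, 3, 4 and 5 and at 2.86, 2.94, 2.70 and 2.55 in aged pools 1, 2, 3 and 4. Its aged pools were all lower, with a fold change of -0.38 (SE 0.10, adjusted p = 0.0826), and Ecm2 passed under 5 of the alternative settings. Dpt, which encodes the collagen-binding dermatopontin, was at 3.36, 3.23, 3.50 and 2.74 in young and 3.01, 3.22, 3.00 and 2.95 in aged pools, and the low young pool 5 made its fold change of -0.16 uncertain (95% interval -0.53 to 0.20). Ecm1 was at 7.64, 7.59, 7.31 and 7.40 in young and 7.47, 7.38, 7.36 and 7.53 in aged pools, a fold change of -0.05. Matn2, an adaptor between matrix networks, was at 5.20, 5.10, 5.07 and 5.25 in young and 5.15, 5.26, 5.14 and 4.94 in aged pools, a fold change of -0.03. In both the groups overlapped.

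Fn1, which encodes fibronectin, the main cell-binding glycoprotein of interstitial matrix, had a fold change of 0.12 (SE 0.10, 95% interval -0.11 to 0.35), and its 4 probes gave 0.03 to 0.17. Vtn (-0.08) and Matn4 (-0.00034) did not pass either. In a list of 10 other adhesive glycoproteins, written with earlier results of these data known, 7 were tested and 3 rose, against 2.37% of all genes. Svep1, a large protein that binds integrin α9β1, rose by 0.52 (SE 0.07, adjusted p = 0.00902), from between 4.61 and 4.78 in young pools to between 5.11 and 5.29 in aged pools. Aebp1, a collagen-binding protein of connective tissue, rose by 0.38 (SE 0.08, adjusted p = 0.0386), and Gas6, a ligand of the TAM receptors, by 0.41 (SE 0.09, adjusted p = 0.0497). The Svep1 call held when any 1 pool was left out, while leaving out any pool ended that of Aebp1 (adjusted p 0.0649 to 0.114) and leaving out any but young pool 2 ended that of Gas6 (up to 0.142).

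Of 16 basement membrane genes, 13 were tested and 11 of these had a negative difference, against 49.6% of all genes, with a median fold change of -0.25 against 0.0014. The genes and their class were chosen with earlier results of these data known. The groups did not overlap in 6 with aged pools lower and in 1 with aged pools higher. Over all genes 4.05% had all aged pools lower and 6.68% had them higher. Only Nid1 and Hmcn1 fell, against 0.801% of all genes, and Nid1 alone where probes had to be well above background on all 8 arrays. Summed on the linear scale, in units of the 75th percentile, the 13 genes gave 647 to 706 in young pools and 554 to 563 in aged pools, a sum that bright probes dominate. Between 9 and 11 of the 13 differences were negative when normalization, background correction, probe choice, variance model, blocks or the pools included were varied, 10 of 12 where probes had to be well above background on all 8 arrays, and 13 of 16 with no filter on dim probes. Across the settings 0 to 5 of the genes fell and 0 to 1 rose, while over all genes 2 to 379 fell and 14 to 705 rose.

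Nid1 encodes nidogen 1, the link between the laminin and type IV collagen networks. Its signal was 7.05, 6.85, 6.94 and 6.92 in young pools 2, 3, 4 and 5 and 6.55, 6.54, 6.50 and 6.48 in aged pools 1, 2, 3 and 4. Each group kept within a narrow band and the bands were apart. Nid1 fell by 0.43 (SE 0.07, 95% interval -0.59 to -0.26, adjusted p = 0.0178, limma), which makes it 1.34-fold lower in aged pools, with -0.38 and -0.48 within the slide rows. Its other probes, which lie elsewhere in the gene on chromosome 13 (the one used is at 13604417 to 13604476, mm9), gave -0.47 and -0.35 without passing over all kept probes (adjusted p = 0.0699 and 0.265). Without young pool 2 or 4 or aged pool 1 or 3 the adjusted p was 0.0538, 0.0511, 0.0548 and 0.0657, and with median scaling 0.0689. It was 0.110 with no filter on dim probes, 0.104 with a block on pool code and 0.292 with one on pool number. Nid2, its paralog, had a fold change of -0.0046 (SE 0.11, 95% interval -0.27 to 0.26).

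Hmcn1 encodes hemicentin 1, a very large protein of the fibulin family that joins epithelia and basement membranes. It was at -4.23, -4.22, -4.66 and -3.33 in young pools 2, 3, 4 and 5 and at -5.35, -5.24, -5.72 and -5.04 in aged pools 1, 2, 3 and 4. These are among the dimmest signals of the set, and the probe was well above background on all 4 young but only 1 aged array. Hmcn1 fell by 1.23 (SE 0.27, 95% interval -1.84 to -0.61), with an adjusted p of 0.0499 at the threshold, on a probe that was tested only because its young signals were well above background, so a difference in this direction was favoured by the filter and its size against aged signals near background is uncertain. Its 2 other probes were well above background on at most 2 young and no aged array. Normexp background correction reduced the difference to -0.37 (adjusted p = 0.0652), and without young pool 2 or 3 or any aged pool the adjusted p was 0.0771 to 0.131. The authors' own table reduced it to -0.64 but kept the call (adjusted p = 0.0345). Median, quantile and cyclic loess normalization (0.0207, 0.0274 and 0.0296) and array weights (0.0121) kept it too. Of 13 settings other than leaving out a pool, 6 lost the call. The probe lies at 152410434 to 152410493 of chromosome 1 (mm9).

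Laminins are trimers of an α, a β and a γ chain. Lamc1, the γ1 chain shared by most of them, was at 7.34, 7.42, 7.25 and 7.31 in young pools 2, 3, 4 and 5 and at 6.97, 7.02, 7.08 and 7.15 in aged pools 1, 2, 3 and 4. All aged pools lay lower, yet the fold change of -0.27 (SE 0.08, 95% interval -0.45 to -0.10) did not pass (adjusted p = 0.112, limma), and its 4 probes ranged from -0.45 to -0.04. The α2 chain of muscle laminin (Lama2, -0.30, SE 0.07, adjusted p = 0.0643), the β1 chain (Lamb1, -0.25, SE 0.07, adjusted p = 0.110) and the α4 chain of vessel laminin (Lama4, -0.32, SE 0.11, adjusted p = 0.204) also had all aged pools below all young pools. Lama2 passed under 5 alternative settings, Lamb1 under 3 and Lamc1 under 2. With Lamc1 these chains can form the trimers α2β1γ1 and α4β1γ1. For Lama2 the difference was seen in 4 of its 5 probes (-0.33 to -0.23) but not in a dim one (0.19), and for Lama4 the dimmer probes gave -0.11, 0.01 and 0.04. The α5 (Lama5, -0.32) and β2 (Lamb2, -0.11) chains had overlapping groups.

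Lamb3, the β3 chain of a laminin of epithelia, differed in the other direction. It was at -2.40, -2.39, -2.47 and -2.39 in young pools 2, 3, 4 and 5 and at -1.65, -0.90, -1.87 and -1.76 in aged pools 1, 2, 3 and 4. The young pools were almost equal, all aged pools were higher, and aged pool 2 was highest. The fold change of 0.87 (SE 0.19, 95% interval 0.42 to 1.31) fell short of the threshold (adjusted p = 0.0541, limma), whereas the second, dimmer probe passed over all kept probes with 0.91 (adjusted p = 0.0418). Lamb3 passed under 4 alternative settings, the mean over both probes among them. Lama3, the α3 chain, was well above background on only 1 array (young pool 4) and was not tested.

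The heparan sulphate proteoglycans of basement membranes, perlecan (Hspg2, -0.20, 95% interval -0.50 to 0.10) and agrin (Agrn, 0.15, -0.06 to 0.36), and the von Willebrand domain protein Vwa1 (-0.02, -0.21 to 0.17) did not pass and had overlapping groups. Neither of the 2 probes of Lama1, the embryonic α1 chain, was well above background on any array, and Npnt, which encodes the integrin α8β1 ligand nephronectin, was so on 1 array alone (young pool 2).

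**Figure D3:**
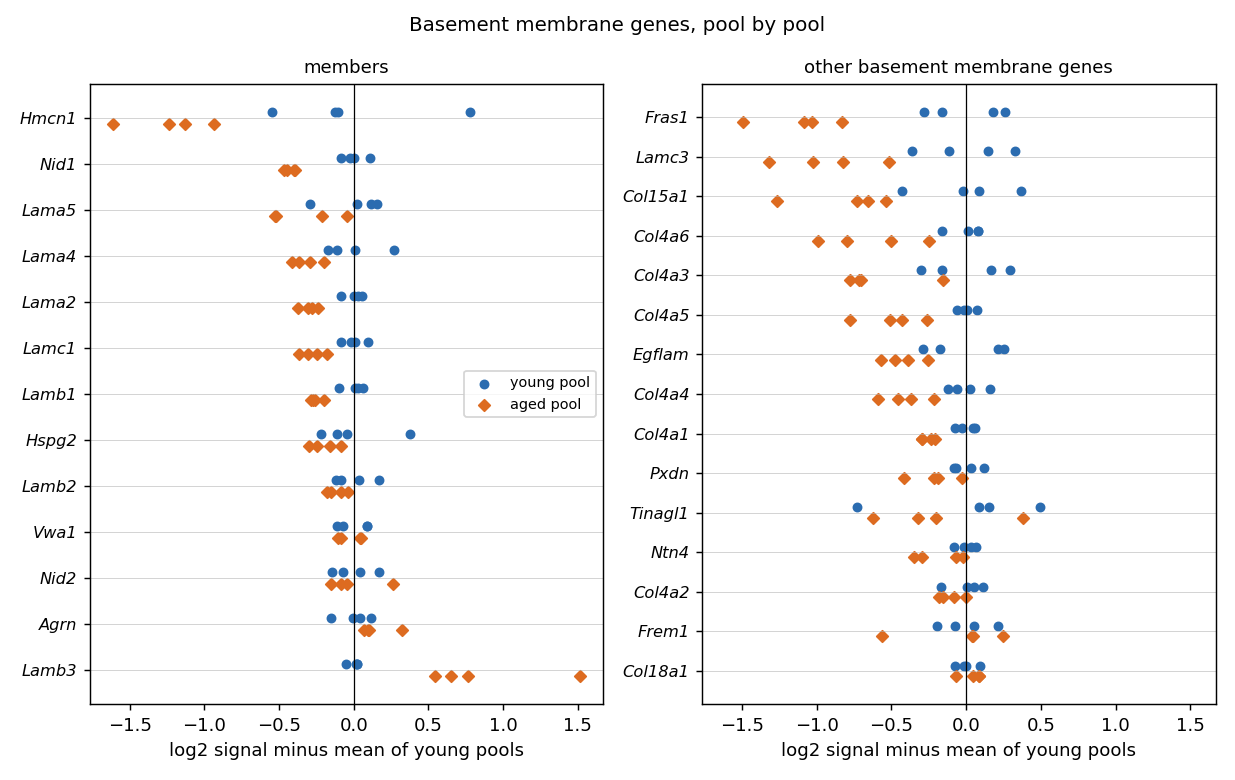
Log2 signal of each pool minus the mean of the 4 young pools (horizontal axis) for the 13 basement membrane genes of the set (left) and 15 other basement membrane genes (right), with young pools as blue circles and aged pools as orange diamonds. Aged pools lie left of all young pools in 6 of the 13 and 7 of the 15 genes, and Lamb3 is the gene with all aged pools to the right.

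Of 17 other basement membrane genes, 16 were tested, 2 fell and none rose, against 0.801% and 2.37% of all genes. Their median fold change was -0.41, against 0.0014 over all genes, and 15 of the 16 differences were negative, against 49.6%. In 8 genes all aged pools were below all young pools, as in 4.05% of all genes. This list was written with earlier results of these data known, so its shares are no independent check of the basement membrane genes of the set. Fras1, a protein of embryonic epithelial basement membranes, fell by 1.11 (SE 0.17, adjusted p = 0.0119), from between -1.87 and -1.33 in young pools to between -3.08 and -2.42 in aged pools. Lamc3, the laminin γ3 chain, fell by 0.92 (SE 0.20, adjusted p = 0.0476), from between -0.98 and -0.30 to between -1.94 and -1.14. The Fras1 call held when any 1 pool was left out, while that of Lamc3 was lost without any pool other than young pool 5 or aged pool 2, with adjusted p up to 0.129. The type IV collagen chains, chosen for mention after their values were seen, had fold changes of -0.26 (Col4a1), -0.10 (Col4a2), -0.59 (Col4a3), -0.41 (Col4a4), -0.49 (Col4a5) and -0.64 (Col4a6), and none passed (adjusted p between 0.0549 and 0.711). Fibroblast collagens had similar values beside these, with -0.38 for Col1a1, -0.36 for Col1a2 and -0.38 for Col3a1, none of which passed. In each of these fibroblast collagens all aged pools lay below all young pools.

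The receptors that bind these proteins showed no change past the test. Of 26 integrin subunits, syndecans and other matrix receptors, 23 were tested and none rose or fell, where 2.37% and 0.801% of all genes did. At such shares a list of 23 genes can hold no call without differing from all genes. The median fold change was -0.07, and 15 of the 23 differences were negative, against 49.6% of all genes. All aged pools lay below all young pools in 2 receptors and above them in 1, against 4.05% and 6.68% of all genes. Itgb4, an integrin subunit of epithelial cells that binds laminin, had the largest difference, 0.50 (SE 0.15, adjusted p = 0.145), and its groups were barely apart, at -2.22 to -1.58 in young and -1.57 to -1.17 in aged pools.

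Several probes per gene gave a check of the fold changes. Of the 49 genes, 27 had more than 1 kept probe, and in 19 of these all probes had the same sign. The 8 with probes of opposite sign were Fbn1, Lama2, Lama4, Vwa1, Efemp2, Fbln1, Matn2 and Matn4, and none of their probes passed over all 30824 kept probes. The probes of Postn, Efemp1, Nid1, Eln, Lamb1 and Lamb3 kept their sign throughout. Fbln7, Cthrc1 and Hmcn1 were read from 1 kept probe each.

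**Figure D4:**
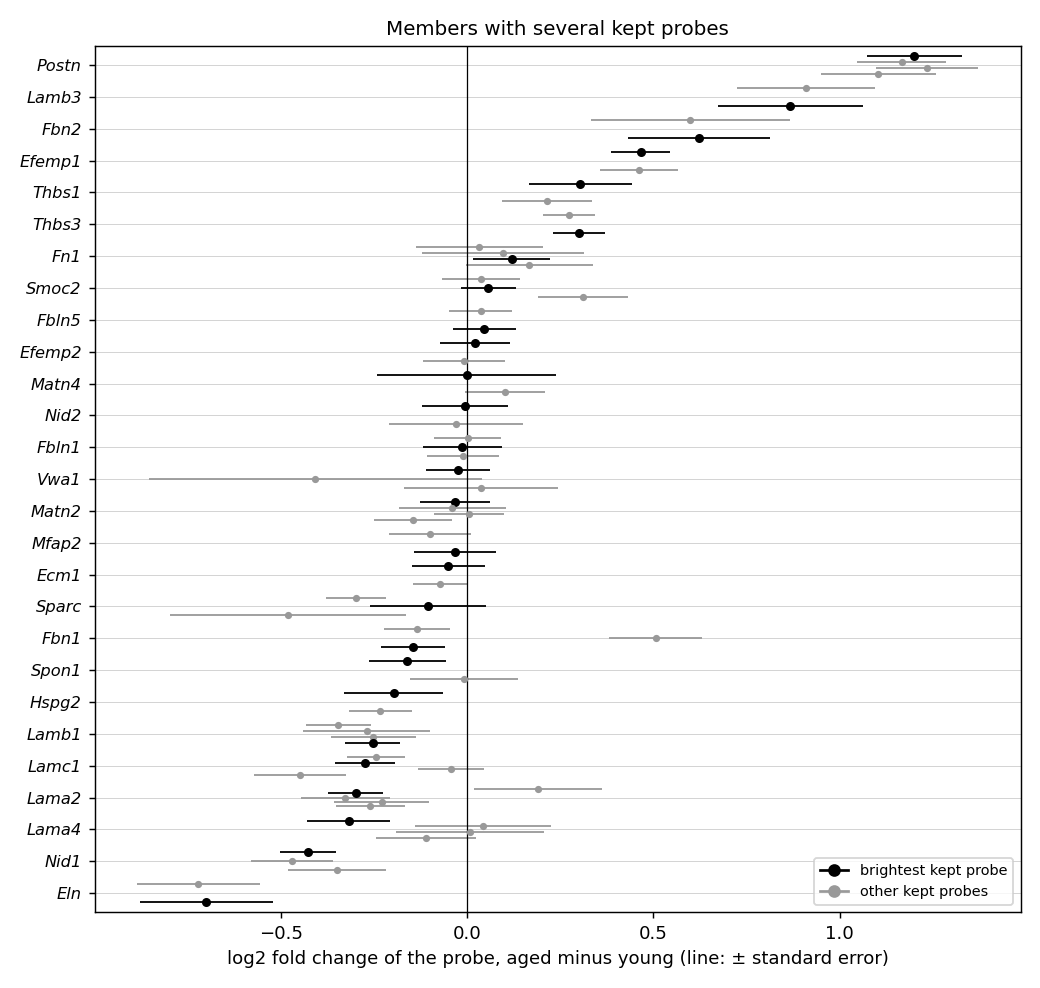
Log2 fold change (aged minus young, horizontal axis) of every kept probe of the 27 genes with several, with its standard error as a line, the brightest probe in black and the others in grey. The 4 Postn probes lie between 1.10 and 1.24, and 1 Fbn1 probe, at 0.51, is apart from the others of that gene.

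Postn and Fbln7 passed under all alternatives except the block on pool numbers, and without any 1 pool (adjusted p up to 0.0122 and 0.0212). Under the block on pool numbers 14 of all 20226 genes rose and 2 fell. With the row of the slide as a block 4 of the 49 genes rose and 2 fell, as without it, and 445 and 146 of all genes did.

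**Figure D5:**
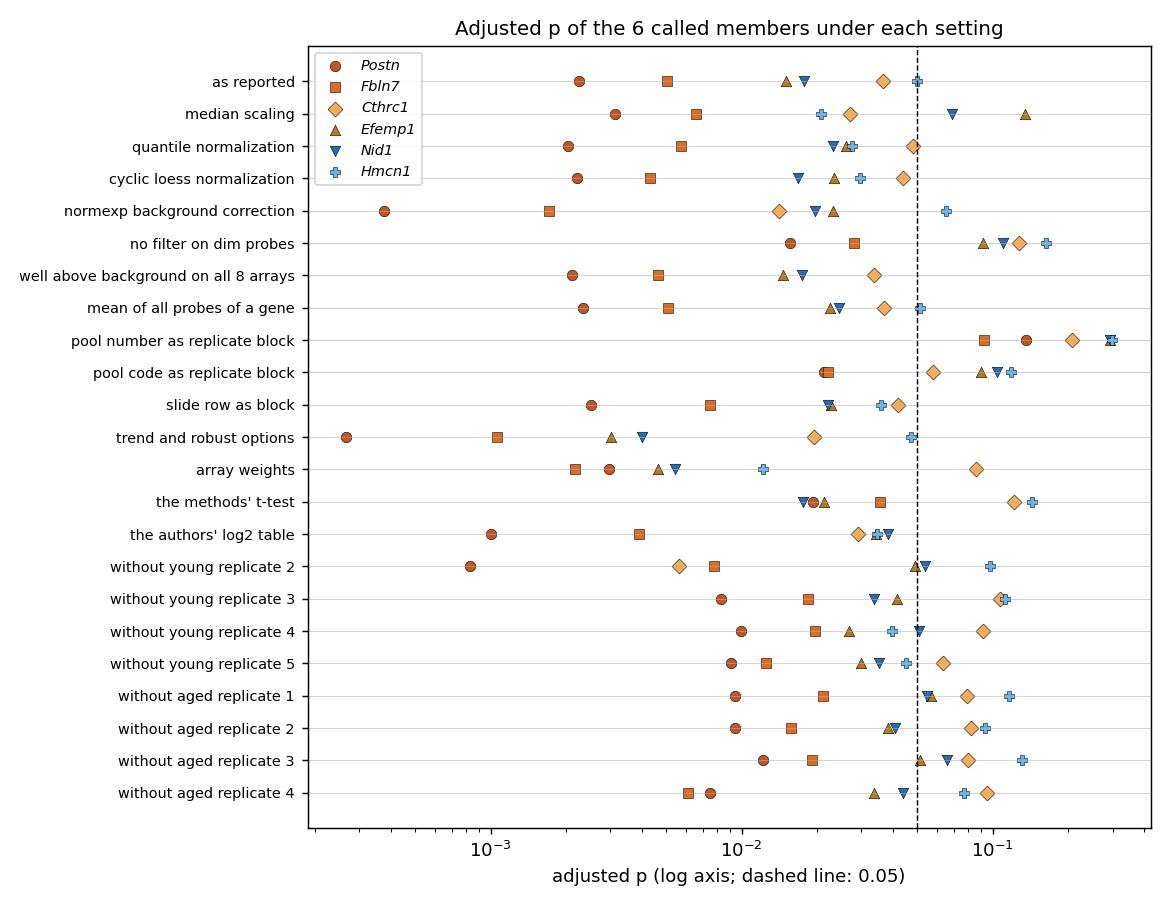
Adjusted p (horizontal log axis, dashed line at 0.05) of the 6 genes that passed, under each alternative processing setting and without each pool. Postn and Fbln7 stay left of the line in every row but the block on pool numbers, while Cthrc1 and Hmcn1 cross it most often.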

How the data were processed

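RNA of sorted cMSCs was measured in 4 young and 4 aged pools on 8 Agilent arrays with 1 colour. Groups and pool numbers came from the sample labels, which give ages of 5 and 20 months. The label code of aged pool 4 can be read as fewer mice than the 3 that the study's methods state for a pool. The authors deposited scanner output whose values are intensities from Agilent Feature Extraction 10.10.1.1, already corrected for background and spatial trends but not normalized between arrays. They also deposited a table of log2 values, quantile-normalized and not centred on genes, with a median of 8.12 on every array, with no background correction or filter stated in the sources used here. Every column of it matched its own array best, and it was used as an alternative. For the authors' test of the arrays, the study's methods and the processing notes of the submitters name limma.

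Control spots and outlier spots were left out, the 75th percentile of each array was subtracted from its log2 processed signals, and repeated spots were averaged per probe. Kept probes were well above background on each of the 4 young arrays, each of the 4 aged arrays, or both, and a gene was represented by its kept probe with the highest mean. Of 56605 distinct probes, 32994 were named by accession through a RefSeq table of GRCm38.p6, 10224 by a current symbol in the array files, and 13387 kept the name in those files. Probe positions, on mm9, were copied from the array files. Groups were compared over 20226 genes with limma 3.58.1 in R 4.3.3 (lmFit, eBayes; 6 residual and 2.53 prior degrees of freedom) and Benjamini-Hochberg adjustment. Tables and figures used pandas 2.3.3, numpy 2.4.6 and matplotlib 3.10.9. The labels do not say whether pools came from separate preparations, so p-values measure the spread between these pools.

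The number of arrays limits the precision. The 75th percentile of the signal was 479 to 816, 57.8% to 63.4% of spots were well above background, no spot was saturated, and 1 slide with 2 rows held all arrays, each row with 2 pools of each group. On simulated data for this comparison, with 20214 genes, the share of changed genes recovered was 31.6% at a log2 change of 0.5, 71.9% at 1 and 96.4% at 2, and 4.86% of calls were false. Each of 5 runs changed 200 genes and drew every value independently. The shares hold for that setting and are not the error rate of the real comparison.

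The 53 genes, their classes, the lists of other matrix genes and receptors and the marker lists were chosen with earlier results of these data known. Named with values in every pool are genes that passed and, in each class, the 2 with the largest change and the 2 brightest. Of the other lists, genes that passed are named, or the 1 with the largest change. Alternatives were other normalizations (median, quantile, cyclic loess), normexp background correction with an offset of 50, other filters on dim probes, the mean of all probes, blocks on pool number, pool code or slide row, array weights, limma with trend and robust estimation, the authors' table, the methods' t-test, the study's thresholds and leaving out each pool. The methods' t-test is the unpaired Student's t-test that the study's methods name for comparing 2 groups in general. No protein sequences were used here. Fold changes and p-values of the authors' own comparison were not used. Values of 1 gene of the other basement membrane list, which enters that list's counts, are not reported here.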

Additional observations from a re-analysis of the deposited data

Results flagged for a closer look

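In 6 of 98 groups of 4 pools (2 groups for each of the 49 genes), the highest or lowest pool lay far from the other 3 by Dixon's criterion, and chance alone flags about 1 in 20 groups. Eln had 1 high young pool, pool 5 at 3.27 against 2.74 to 2.82 in the others, and Emilin1 had the same pool high, at 1.75 against 1.27 to 1.35. Lamb3 had young pool 4 low, at -2.47 against -2.40 to -2.39. Among aged pools, pool 2 was high for Agrn, at 3.93 against 3.68 to 3.72, and for Tnxb, at 3.73 against 3.06 to 3.17, and pool 4 was high for Fbln5, at 5.43 against 5.24 to 5.27. None of these 6 genes passed the comparison of aged with young pools, and without young pool 5 the fold change of Eln was -0.58, still short of the threshold.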

How the results depend on the processing

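As reported, 4 genes rose and 2 fell. Settings that moved a count by more than 1.5 times were these. Fewer fell with median scaling, with probes above background on all 8 arrays and with the mean of probes (1 each), and more with quantile normalization (4), normexp (5), trend and robust options (6) and array weights (8). The counts over all genes moved too, from 162 falling as reported. They were 126 with median scaling, 150 with probes above background on all 8 arrays and 153 with the mean of probes. Quantile normalization gave 168, normexp 223, trend and robust options 227 and array weights 379. With no filter on dim probes 2 rose and 0 fell, where 201 and 45 of all 37325 genes did. Without each pool in turn, 2 to 5 rose and 0 to 2 fell, with 2 rising without aged pool 1 or 3 and none falling without young pool 2 or aged pool 1 or 3. Over all genes 261 to 373 rose and 68 to 160 fell in these runs. The pool number as a block left 0 rising and 0 falling, with adjusted p of 0.135 for Postn and 0.0921 for Fbln7. Only numbers 2, 3 and 4 occur in both groups, so young pool 5 and aged pool 1 do not enter that contrast. Over all 20226 genes 14 rose and 2 fell with this block. The pool code as a block left 2 rising and 0 falling, ending the calls of Efemp1, Cthrc1, Nid1 and Hmcn1, with 207 rising and 51 falling over all genes. Same-numbered pools also share the digits of their code, except pool 4, whose young code is longer and was shortened to match the aged one. The code pairs young pool 5 with aged pool 1 as well. Deviations of same-numbered pools correlated at 0.181, -0.17 and -0.269 and those of the further pair at 0.143, not every pool correlated best with its partner, and the labels tie neither number nor code to a shared batch, so neither was taken to pair the samples. The median fold change stayed between -0.08 and -0.01 throughout. Genes with a difference near 0 changed sign: Fbn1 with the mean of probes (0.076), Vwa1 with array weights (0.037), Fbln5 with array weights (-0.018), Efemp2 with median scaling (-0.024), the pool number block (-0.056) and array weights (-0.011), Tgfbi with median scaling (-0.039), normexp (-0.027), the pool number block (-0.050) and in the authors' table (-0.013), Matn4 with quantile normalization (0.0076), cyclic loess (0.0054), the mean of probes (0.051) and in the authors' table (0.0081), and Nid2 with cyclic loess (0.0040) and the pool number block (0.060). Leaving out 1 pool also crossed 0 for Fbln1 (-0.077 to 0.040), Efemp2 (-0.033 to 0.067), Mfap2 (-0.12 to 0.026), Mfap4 (-0.28 to 0.064), Mfap5 (-0.042 to 0.020), Tgfbi (-0.042 to 0.066), Ecm1 (-0.11 to 0.00091), Matn2 (-0.079 to 0.030), Matn4 (-0.27 to 0.14), Nid2 (-0.095 to 0.052) and Vwa1 (-0.061 to 0.0071). The cause of these changes was not tested. Signals near background limit Hmcn1 and Tnc, whose probes were not well above background on every array.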
